A study of Drosophila melanogaster with 6 samples.

Results

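The 9 genes described here code for voltage-gated calcium channels, the sodium leak channel and its partners, a sodium channel accessory subunit, a further 4-domain cation channel and the hyperpolarization-activated Ih channel of Drosophila melanogaster. They were taken by name from the 16725 genes of the count table, namely cac, Ca-alpha1D, Ca-alpha1T, na, unc79, unc80, NaCP60E, tipE and Ih, and all 9 were present with counts. The voltage-gated sodium channel gene para is listed without counts and was not analysed here. The brains came from 5-day-old adults, given as Canton-S in the study's methods, with 15 brains pooled in a sample, and their sex is not given in the sources used here. The methods state that total RNA was split for rRNA depletion and for polyA enrichment. In rRNA depletion DNA probes pair with rRNA and RNase H digests the pairs, while polyA enrichment keeps RNAs with a polyA tail. By the methods, rRNA depletion started with more total RNA than polyA enrichment did. There were 2 rRNA-depleted and 2 polyA-enriched brain libraries, each kind numbered 1 and 2, and no treatment or mutant. The comparison asks how the choice of library changes what is read from brain RNA.

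In nerve cells, voltage-gated calcium channels turn an electrical signal into calcium entry, which triggers transmitter release and other responses. The sodium leak channel carries a small steady inward current that sets how close a neuron sits to firing, and Ih channels open when the membrane becomes more negative and help to pace rhythmic firing. In flies, the sodium leak channel is known for its part in daily rhythms of locomotion. A measured RNA level does not show how much channel protein is in the membrane, and in RNA from whole brains fewer cells of a type and less RNA per cell cannot be told apart.

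The total count was 14295047 and 12142737 in rRNA-depleted libraries 1 and 2, and 13821678 and 11838449 in polyA-enriched libraries 1 and 2, and a floor of 3 counts stood for at most 0.253 CPM, the counts of a gene scaled to a common library total. At this depth even the lowest member, tipE, had 1638 counts or more in each library. The libraries differed in marker genes of other tissues. Markers of photoreceptors, fat body and muscle, 38 genes in all, summed to 2239 and 3659 CPM in the rRNA-depleted libraries, against 19631 and 17568 CPM in the polyA-enriched libraries. The 9 neuron markers summed to 16936 and 13341 CPM in the rRNA-depleted libraries, and 13752 and 11227 CPM in the polyA-enriched libraries, and no neuron, glia or other tissue marker was at 0 in all 4 libraries.

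All 9 channel genes had a higher fitted level in the rRNA-depleted libraries than in the polyA-enriched libraries, by between 9.46% for tipE and 34.8% for NaCP60E, and none was called different. In edgeR's quasi-likelihood test of the labelled groups, a call needed a Benjamini-Hochberg adjusted p-value under 0.05 over all genes tested and a change of over 2-fold. This called 0 of the 9 members, and 0% of the 9737 genes tested were called in either direction, while 1103 genes had an unadjusted p-value under 0.05. The smallest adjusted p among the members was 0.82, for NaCP60E, and the smallest among all genes was 0.061. DESeq2 also called 0 of the 9 members, while among all genes it called 2 higher and 546 lower. The median log2 fold change of the members was 0.24, against 0.04 for all genes tested.

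A second fit took the library number as a block, since both kinds of library carry the numbers 1 and 2 and the methods state that total RNA was split. The methods do not state that libraries of the same number share an RNA. Photoreceptor, fat body and muscle markers differed widely within numbers, with a median log2 ratio of -3.16 within number 1 and -3.00 within number 2. Whether libraries of the same number hold the same RNA was not tested, and the p-values with the block rest on that pairing. With the block, 0 of 9 members were called at over 2-fold, where 0.349% of all genes tested were called higher and 12.1% lower. Without a fold threshold, 4 of the 9 members had an adjusted p under 0.05 in edgeR and were higher in the rRNA-depleted libraries, namely NaCP60E, unc80, na and cac, and 0 were lower. Among all genes tested, 11.1% were higher and 19.2% were lower by that rule. DESeq2 with the block put 5 members under 0.05, these 4 and Ca-alpha1T (adjusted p = 0.024 in DESeq2), and its share over all genes by that rule is not given here. The count of 4 depended on the scaling of the libraries, since it was 6 with DESeq2 size factors, where 16.9% of all genes were higher, and 1, NaCP60E, with library totals alone, where 8.24% were higher. With the block, the median of all genes was 0.11 with DESeq2 size factors, 0.04 with TMM factors and -0.01 with library totals. The median of the 9 members was 0.31, 0.24 and 0.19 under the same scalings, each 0.20 above that of all genes. A change of scaling moves all genes by nearly the same amount, so this gap was bound to stay alike.

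**Figure D1:**
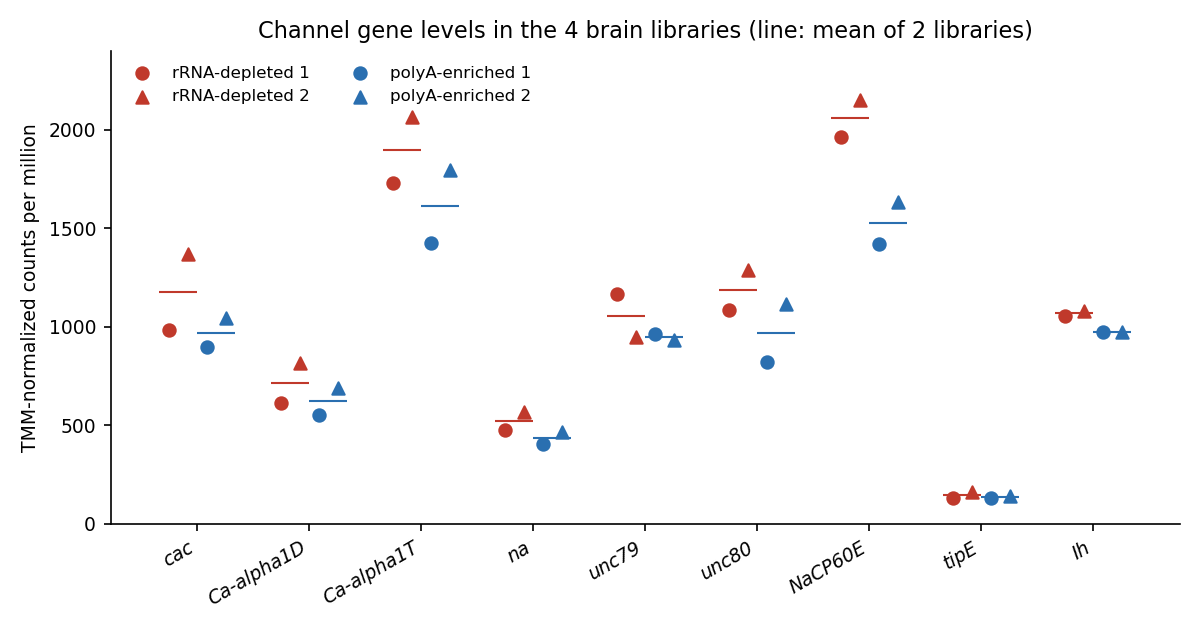
Level of each channel gene in each brain library, in CPM after TMM normalization. Red points are rRNA-depleted and blue points polyA-enriched libraries, circles are libraries numbered 1, triangles are libraries numbered 2, and a line is the mean of the 2 libraries of a label. The labels do not overlap for NaCP60E, na and Ih, and overlap for the other 6 genes.

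The calcium channel genes come first. The gene cac codes for the alpha1 subunit of the Cav2-type channel, which lets in the calcium that triggers transmitter release at the active zone. It lies on chromosome X of dm6, at chrX:11931280-11985087 on the minus strand, with 11.9 kb of exon sequence in a span of 53.8 kb. It had 14304 and 15690 counts in the rRNA-depleted libraries 1 and 2, and 12799 and 12372 counts in the polyA-enriched libraries 1 and 2. After TMM normalization these were 981 and 1370 CPM in the rRNA-depleted libraries, against 896 and 1041 CPM in the polyA-enriched libraries. The rRNA-depleted library 2 stood highest and the groups overlapped. The log2 fold change of cac was 0.28 (standard error 0.29 with 2 libraries of each kind, adjusted p = 1.00 in edgeR), and with the block it was 0.26 (standard error 0.10, adjusted p = 0.036 in edgeR). Without the block, the value of cac varied with the rRNA-depleted libraries used, as it was 0.01 without library 2 of that kind and 0.50 without library 1.

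Ca-alpha1D codes for the alpha1 subunit of the L-type, or Cav1, channel, found in nerve cell bodies and dendrites and in muscle. Its span is chr2L:16165831-16190540 on the plus strand, and 2.37% of its exon bases are shared with exons of an antisense RNA gene, CR43806, on the other strand. Counts on Ca-alpha1D were 8958 and 9322 in the rRNA-depleted libraries, against 7855 and 8186 in the polyA-enriched libraries. These were 614 and 814 CPM in the rRNA-depleted libraries, and 550 and 689 CPM in the polyA-enriched libraries, so that polyA-enriched library 2 lay between the rRNA-depleted libraries. Its log2 fold change was 0.21 (standard error 0.29, adjusted p = 1.00 in edgeR), or 0.20 with the block (standard error 0.10, adjusted p = 0.11 in edgeR). In the fit without the block, leaving out rRNA-depleted library 2 turned the difference to -0.02.

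Ca-alpha1T codes for the alpha1 subunit of the T-type, or Cav3, channel, which opens at voltages close to rest. It had the highest level per exon length of the 9 genes in each library. It spans 88.4 kb at chrX:6104085-6192483 on the minus strand, and its exons take up 14.9% of that span. It had 25179 and 23648 counts in the rRNA-depleted libraries, against 20321 and 21352 in the polyA-enriched libraries. In normalized CPM these were 1727 and 2065 in the rRNA-depleted libraries, and 1423 and 1797 in the polyA-enriched libraries. The groups overlapped, since polyA-enriched library 2 was above rRNA-depleted library 1. The log2 fold change was 0.24 (standard error 0.26, adjusted p = 1.00 in edgeR), and with the block it was 0.24 (standard error 0.10, adjusted p = 0.058 in edgeR).

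Per kb of exon, the 3 alpha1 genes kept nearly the same proportions in all 4 libraries. Ca-alpha1T made up 48.3% and 44.9% of their summed level per kb in the rRNA-depleted libraries, and 45.9% and 47.2% in the polyA-enriched libraries. For cac the shares were 30.2% and 32.9% in the rRNA-depleted libraries, against 31.9% and 30.1% in the polyA-enriched libraries. Ca-alpha1D held the rest, 21.5% and 22.2% in the rRNA-depleted libraries and 22.2% and 22.7% in the polyA-enriched libraries. For Ca-alpha1T and cac the difference between libraries of a label was as large as the difference between labels. A share within a library does not depend on how the libraries are scaled against each other.

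The sodium leak channel is built on na, narrow abdomen, the fly NALCN gene, whose protein works together with the large proteins coded by unc79 and unc80. The gene na lies at chrX:14266367-14277416 on the plus strand and has 7.88 kb of exon sequence. It had 6948 and 6457 counts in the rRNA-depleted libraries, against 5759 and 5528 in the polyA-enriched libraries, or 476 and 564 normalized CPM in the rRNA-depleted libraries, and 403 and 465 in the polyA-enriched libraries. Both rRNA-depleted libraries were above both polyA-enriched libraries. For na the log2 fold change was 0.26 (standard error 0.25, adjusted p = 1.00 in edgeR), and 0.26 with the block (standard error 0.09, adjusted p = 0.030 in edgeR).

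The gene unc79 lies at chr3R:19230764-19246130 on the minus strand, and unc80 lies on the same chromosome at chr3R:27662439-27677099 on the plus strand. There were 16990 and 10820 counts on unc79 in the rRNA-depleted libraries, against 13750 and 11055 in the polyA-enriched libraries. In normalized CPM, unc79 had 1165 and 945 in the rRNA-depleted libraries, and 963 and 930 in the polyA-enriched libraries. In these normalized values it was the only one of the 9 genes that was lower in library 2 than in library 1 of both kinds. Its log2 fold change was 0.16 (standard error 0.25, adjusted p = 1.00 in edgeR), or 0.15 with the block (standard error 0.10, adjusted p = 0.28 in edgeR). Leaving out rRNA-depleted library 1 turned the value without the block to -0.01.

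For unc80 the counts were 15781 and 14721 in the rRNA-depleted libraries, against 11737 and 13231 in the polyA-enriched libraries. These were 1082 and 1286 normalized CPM in the rRNA-depleted libraries, and 822 and 1114 in the polyA-enriched libraries, with polyA-enriched library 2 between the rRNA-depleted libraries. The log2 fold change of unc80 was 0.29 (standard error 0.28, adjusted p = 1.00 in edgeR), and with the block it was 0.30 (standard error 0.10, adjusted p = 0.014 in edgeR).

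The balance of unc79 and unc80 differed more between library numbers than between library kinds. Within each number, unc79 had a smaller share and unc80 a larger share in the rRNA-depleted library. Per kb of exon, unc79 made up 40.8% and unc80 37.6% of the summed level of the 3 leak channel genes in rRNA-depleted library 1, and in polyA-enriched library 1 they made up 41.9% and 35.4%. In rRNA-depleted library 2 the shares were 32.1% for unc79 and 43.2% for unc80, and in polyA-enriched library 2 they were 35.3% and 41.9%. The channel gene itself, na, held between 21.6% and 24.7% in the 4 libraries.

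NaCP60E, also called DSC1, codes for a 4-domain channel that was named for its likeness to sodium channels. It lies at chr2R:24891614-24921677 on the plus strand, and 1.11% of its exon bases are shared with exons of pain, a TRP channel gene on the other strand. NaCP60E showed the largest difference between the labels among the 9 genes in both edgeR fits. It had 28614 and 24641 counts in the rRNA-depleted libraries, against 20290 and 19378 in the polyA-enriched libraries. These were 1962 and 2152 normalized CPM in the rRNA-depleted libraries, and 1421 and 1631 in the polyA-enriched libraries. The groups did not overlap. Its log2 fold change was 0.43 (standard error 0.23, adjusted p = 0.82 in edgeR), and with the block it was also 0.43 (standard error 0.10, adjusted p = 0.00033 in edgeR). Of the genes tested, 94.0% had a smaller log2 fold change with the block.

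The small gene tipE codes for a membrane protein that raises the current of the para sodium channel, and lies at chr3L:4188499-4193788 on the plus strand. Of its exon bases, 19.0% are shared with exons of CG18675 on the same strand, so reads there cannot be assigned to either gene, and how the authors' counting treated them is not given in the sources used here. It had 1893 and 1848 counts in the rRNA-depleted libraries, against 1830 and 1638 in the polyA-enriched libraries. These were 130 and 161 normalized CPM in the rRNA-depleted libraries, and 128 and 138 in the polyA-enriched libraries, and the groups overlapped. The log2 fold change was 0.13 (standard error 0.24, adjusted p = 1.00 in edgeR), or 0.12 with the block (standard error 0.10, adjusted p = 0.41 in edgeR). The value without the block turned to -0.05 when rRNA-depleted library 2 was left out.

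Ih codes for the fly HCN channel and lies at chr2R:14276130-14300095 on the plus strand. Its counts were 15393 and 12339 in the rRNA-depleted libraries, against 13880 and 11582 in the polyA-enriched libraries. In normalized CPM these were 1055 and 1078 in the rRNA-depleted libraries, and 972 and 975 in the polyA-enriched libraries. Libraries of a label were closer to each other for Ih than for any other member in these values, and the groups did not overlap. Without TMM factors Ih was lower in library 2 of both kinds, at 1077 and 1016 CPM in rRNA-depleted libraries 1 and 2, and 1004 and 978 CPM in polyA-enriched libraries 1 and 2. For Ih the log2 fold change was 0.13 (standard error 0.22, adjusted p = 1.00 in edgeR), and 0.13 with the block (standard error 0.10, adjusted p = 0.34 in edgeR). Thus 3 of the 9 members, NaCP60E, na and Ih, were higher in both rRNA-depleted libraries than in both polyA-enriched libraries, as were 11.8% of all genes tested.

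The difference between the labels was also read within each pair of libraries with the same number. Within number 1, the log2 ratio of the rRNA-depleted to the polyA-enriched library was lowest for tipE at 0.02 (95% interval -0.08 to 0.11, counting error only) and highest for NaCP60E at 0.47 (0.44 to 0.49). Within number 2 it was lowest for unc79 at 0.02 (-0.02 to 0.06) and again highest for NaCP60E at 0.40 (0.37 to 0.43). All 9 members were higher in the rRNA-depleted library of both pairs, as were 39.6% of the genes tested. The ratio differed most between the pairs for cac, which had 0.13 within number 1 and 0.40 within number 2, and for unc79, which had 0.27 within number 1 and 0.02 within number 2. For na, Ih, NaCP60E, Ca-alpha1T and Ca-alpha1D pair 2 minus pair 1 lay between -0.08 and 0.08. With 1 library per kind and number, these differences between pairs were not tested.

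Between library 2 and library 1 of a label, the members differed about as much as between labels. The median log2 ratio of library 2 to library 1 over the 9 genes was 0.25 in the rRNA-depleted libraries, where it was 0.11 for all genes tested, and 0.21 in the polyA-enriched libraries, where it was -0.01 for all genes. In the rRNA-depleted libraries, cac was higher in library 2 by 0.48 and Ca-alpha1D by 0.41, and unc79 was at -0.30. In the polyA-enriched libraries, unc80 was higher by 0.44 and unc79 was at -0.05. NaCP60E and Ih were the members for which both ratios between labels were larger in absolute size than both ratios between numbers.

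**Figure D2:**
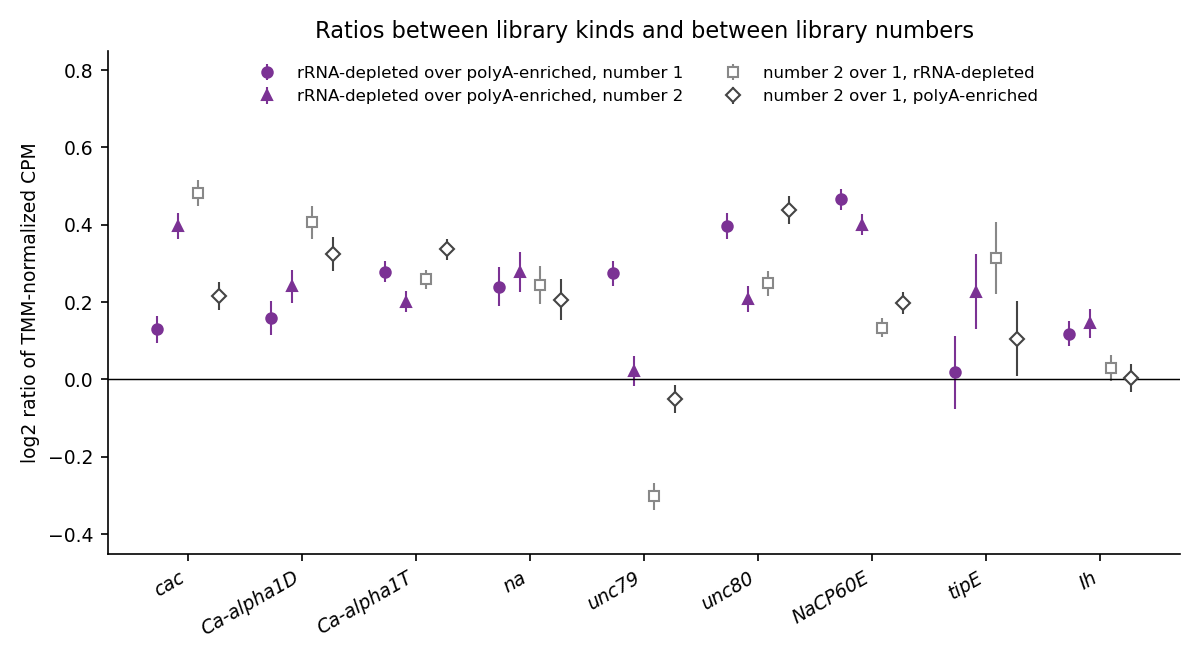
Log2 ratios of TMM-normalized CPM for each channel gene. Filled purple points are rRNA-depleted over polyA-enriched libraries within number 1 (circles) and number 2 (triangles), open points are library 2 over library 1 within the rRNA-depleted (squares) and polyA-enriched (diamonds) libraries, and bars are 95% intervals for counting error only. All filled points lie above 0, from 0.02 to 0.47, and the open points of unc79 lie below 0.

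Levels were compared between genes only as CPM per kb, using the union of annotated exons as length. The 9 genes spanned a 3.90-fold range (SD 0.31 over the 4 libraries). Over the 4 libraries the mean was 132.9 ± 15.2 for Ca-alpha1T, 114.2 ± 17.7 for NaCP60E, 104.3 ± 15.1 for unc80 and 98.4 ± 12.9 for unc79 (SD, n = 4 libraries of 2 kinds). These were followed by cac at 89.4 ± 13.3, Ih at 80.1 ± 3.3, Ca-alpha1D at 63.3 ± 8.2, na at 60.4 ± 6.1 and tipE at 33.997 ± 2.3. Neighbours in this order overlapped in their ranges over the libraries, except that Ih lay above Ca-alpha1D and na lay above tipE in every library. The pore gene of the leak channel, na, was lower per kb than both partner genes, unc79 and unc80, in every library.

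The length used decides part of this order. Ih and tipE have short coding sequences relative to their exons, and per kb of the longest coding sequence Ih became the highest member at 255.9 ± 10.5, tipE stood at 102.4 ± 6.9 and na was the lowest at 71.0 ± 7.1. With the longest annotated transcript as length, NaCP60E was highest at 138.0 ± 21.4, above Ca-alpha1T at 134.0 ± 15.4. In the libraries as a whole the 9 members held 0.938% and 0.984% of all counts in the rRNA-depleted libraries, and 0.783% and 0.881% in the polyA-enriched libraries. By count, tipE exceeded 80.9% to 82.3% of the genes tested in the 4 libraries, and na, the next member, exceeded 95.0% to 96.3%.

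**Figure D3:**
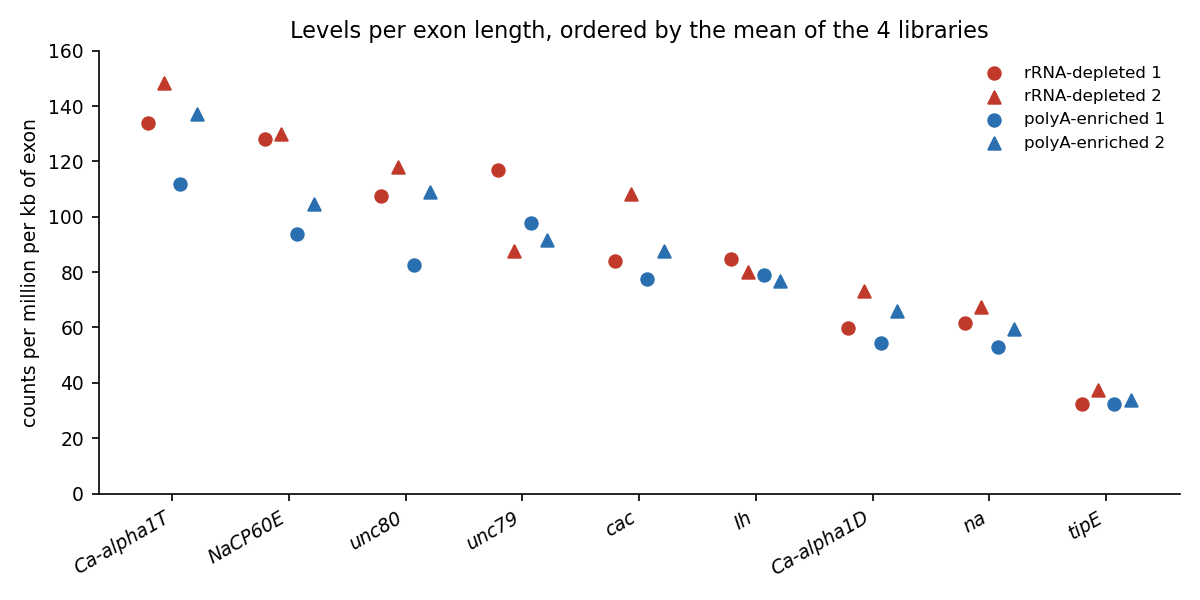
CPM per kb of exon for each channel gene in each library, ordered from left to right by the mean of the 4 libraries. Red points are rRNA-depleted and blue points polyA-enriched libraries, with circles for number 1 and triangles for number 2. Ca-alpha1T is highest in each library, tipE lowest, and most neighbours overlap.

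Partner subunits and assembly factors of these channels made up a list of 9 genes, all of which passed the count minimum, and 0 of 9 were called in the labelled comparison. With the block and no fold threshold, 7 of 9 had an adjusted p under 0.05 and were higher in the rRNA-depleted libraries, and 0 were lower, with a median log2 fold change of 0.34. By that rule 11.1% of all genes tested were higher, as were 34.5% of the genes whose average level was at or above that of tipE. With DESeq2 size factors the list's count was also 7, beside 16.9% of all genes tested, and with library totals it was 6, beside 8.24%. CG4587, or stolid, one of the alpha2delta subunits that carry calcium channels to the synapse, had 9745 and 8258 counts in the rRNA-depleted libraries, against 6767 and 5804 in the polyA-enriched libraries. Its log2 fold change with the block was 0.53 (standard error 0.10, adjusted p = 6.6e-06 in edgeR), and without the block the adjusted p was 0.60. The alpha2delta gene stj, straightjacket, was higher by 0.31 with the block (adjusted p = 0.0080 in edgeR), and CG42817, a further alpha2delta gene, by 0.36 (adjusted p = 0.0068). Ca-beta, the cytoplasmic beta subunit, had 6561 and 7255 counts in the rRNA-depleted libraries, against 5014 and 6022 in the polyA-enriched libraries, and was higher by 0.34 with the block (adjusted p = 0.0035 in edgeR).

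Of the 4 tipE homologs, Teh1 was higher by 0.39 with the block (adjusted p = 0.0020 in edgeR) and Teh3 by 0.34 (adjusted p = 0.015). The log2 fold changes of Teh2 and Teh4 were 0.12 and 0.07 with adjusted p-values of 0.40 and 0.75. The gene Mid1, the match for Nlf-1, which helps the leak channel to reach the cell surface, had 7248 and 9614 counts in the rRNA-depleted libraries, against 5874 and 8282 in the polyA-enriched libraries, and was higher by 0.27 with the block (adjusted p = 0.024 in edgeR). In normalized CPM, as for every member except unc79, its level was also higher in library 2 than in library 1 of both kinds.

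Among 13 genes for calcium stores, pumps and sensors, 0 were called in the labelled comparison, and with the block and no fold threshold 5 were higher and 0 lower, with a median log2 fold change of 0.21, beside 11.1% higher among all genes tested. Of genes with an average level at or above that of tipE, 34.5% were higher by the same rule. With DESeq2 size factors 7 were higher, beside 16.9% of all genes tested. With library totals 5 were higher, beside 8.24% of all genes tested, and 1 was lower, beside 2137 of the 9737 genes tested. The largest differences between the labels were those of CanB, a calcineurin regulatory subunit, and PMCA, the plasma membrane calcium pump. With the block CanB was higher by 0.54 (adjusted p = 3.6e-06 in edgeR) and PMCA by 0.45 (adjusted p = 0.00013). Among 16 other cation channel genes, 13 were tested, and with the block 1 was higher and 3 were lower without a fold threshold, the same 3 also passing 2-fold. Of all genes tested, 11.1% were higher and 19.2% lower without a fold threshold, and 12.1% were lower by over 2-fold. The 3 cation channel genes with the largest difference were trpl, trp and pyx. The photoreceptor channel gene trp had 325 and 418 counts in the rRNA-depleted libraries, against 3003 and 3371 in the polyA-enriched libraries, which gave -3.09 on the log2 scale with the block (adjusted p = 1.6e-33 in edgeR). For trpl, which acts with trp in the eye, it was -3.08, and for pyx, which had 88 counts or fewer in each library, it was -1.32 (adjusted p = 0.00024). Both trp and trpl also stand in the photoreceptor marker list.

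Marker genes of neurons and of other tissues were set beside the channel genes. With the block the 9 neuron markers had a median log2 fold change of 0.34, and 7 of 9 had an adjusted p under 0.05 and were higher. Among them were Syt1, Snap25 and Syn of the synaptic vesicle release machinery. The others, elav at 0.17 and nSyb at 0.20, had adjusted p-values of 0.18 and 0.13 in edgeR. By that rule 11.1% of all genes tested were higher, as were 34.5% of those with an average level at or above that of tipE. Between library numbers the medians of the channel genes and the neuron markers had opposite signs. The median log2 ratio of library 2 to library 1 was 0.25 for the channel genes and -0.32 for the neuron markers in the rRNA-depleted libraries, and 0.21 for the channel genes and -0.11 for the neuron markers in the polyA-enriched libraries. Single neuron markers went both ways. In libraries 1 and 2, brp had 18600 and 28416 counts with rRNA depletion, and 14883 and 25083 with polyA enrichment. For nSyb these were 30547 and 14213 counts with rRNA depletion, and 24946 and 13424 with polyA enrichment. The 8 glia markers had a median of 0.00, with 3 higher and 2 lower, where 19.2% of all genes tested were lower. Of 35 photoreceptor, fat body and muscle markers tested, 33 had an adjusted p under 0.05 and were lower, 32 of them by over 2-fold, and their median was -3.27, opposite in sign to that of the channel genes. The part that tissue content has in the differences of the channel genes was not tested.

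Transcript length moved with the difference as well. Among the protein-coding genes tested and matched to the annotation, those whose longest transcript was 8 kb or more, 331 genes with 7 of the 9 members, had a median log2 fold change of 0.19 with the block, and 34.7% of them had an adjusted p under 0.05 and were higher. In the 2961 genes from 1 to 2 kb the median was -0.04 and 4.56% were higher by that rule. Across 9134 genes, which are not independent, Spearman's rho between length and log2 fold change was 0.22. Level was a further property the members share, and among the 1840 genes with an average level at or above that of tipE the median was 0.17 and 34.5% were higher by that rule. For the 9 members the median was 0.24 and 4 were higher. The part of length and of level was not tested.

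**Figure D4:**
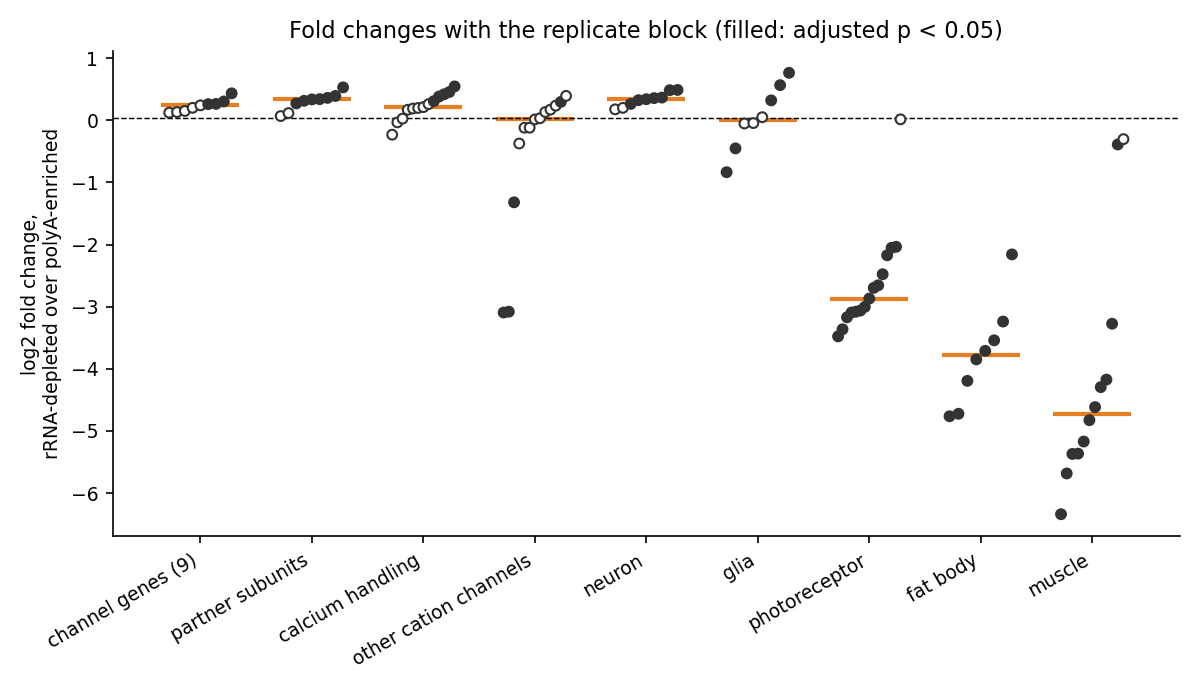
Log2 fold change of rRNA-depleted over polyA-enriched libraries with the replicate number as a block, for each tested gene of 9 lists. Filled points have an adjusted p under 0.05, orange lines are medians of a list, and the dashed line is the median of all genes tested. The channel genes lie between 0.12 and 0.43, the neuron markers between 0.17 and 0.49, and the photoreceptor, fat body and muscle markers lie mostly below -2.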

How the data were processed

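RNA-seq read counts of adult brain libraries were used, 2 of each kind. The authors trimmed 100 bp reads with Trimmomatic, used STAR for alignment to dm6, and made the deposited raw counts with featureCounts, one value per gene and library. Versions, annotation and strand setting are not given in the sources used here. Of 16729 rows, 4 were left out: para and Dscam1, which have no counts, and the row of exon positions after each of them. Libraries from S2 cells were left out. The members and lists were chosen with earlier results of these data known.

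A minimum of 10 counts in 2 or more libraries left 9737 genes, which were tested with edgeR 4.0.16 in R 4.3.3 (quasi-likelihood test, TMM factors, Benjamini-Hochberg adjustment). Standard errors were obtained from the F statistic and the log2 fold change. Alternatives were DESeq2 1.42.0, the replicate number as a block, other scalings and filters, and leaving out each library. The pairing rests on the methods, by which RNA was split, and on the library names. As a check, deviations from the group means were compared within numbers and had a Pearson's r of 0.902 across genes, which are not independent. This check cannot tell a shared RNA from other things that libraries of the same number may share. The edgeR and DESeq2 fits, each with and without the block, were tested on simulated counts that held no difference between library numbers. Other scalings, filters and fits without a library were not tested in this way. The paper gives 2 biological replicates for each kind. P-values rest on the spread between these libraries, which the fits estimate partly from all genes together. With the block, which takes out the number, the standard errors of the members were nearly equal, from 0.095 for na to 0.103 for tipE. They thus say little about each gene's own spread, and the spread that remains may be technical.

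Positions and exon lengths are from Ensembl's BDGP6 annotation, which has dm6 coordinates. Coding length is the longest coding sequence in it. List names were matched by symbol or RefSeq synonym, and 11 partner names gave 9 genes. All members and partner genes were named, and of the calcium handling and other cation channel lists the 3 genes with the largest absolute log2 fold change in the labelled comparison, of which 1 is not reported here. Neuron markers named as examples were chosen after their values were seen. Intervals on ratios cover counting error only. Other steps used Python 3.11.15.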

Additional observations from a re-analysis of the deposited data

How the results depend on the processing

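The 9 members had a positive log2 fold change in edgeR and DESeq2 with and without the replicate block and under each scaling and filter tried. The exceptions came from leaving out a library: Ca-alpha1D ran between -0.023 and 0.39 and tipE between -0.045 and 0.28, both lowest without rRNA-depleted library 2, and unc79 ran between -0.0068 and 0.29, lowest without rRNA-depleted library 1. The fits without a library had no block, so library number and label are partly mixed in them, and they do not show how stable the fit with the block is. In these fits, of the members higher with the block in edgeR, cac ran between 0.01 and 0.50 (without rRNA-depleted library 2 and 1) and na between 0.12 and 0.37 (likewise). There unc80 ran between 0.13 and 0.52 (without polyA-enriched library 1 and 2) and NaCP60E between 0.35 and 0.53 (without rRNA-depleted library 2 and polyA-enriched library 2). When each library was left out in turn, the median of the members ran from 0.11 without rRNA-depleted library 2 to 0.37 without rRNA-depleted library 1, against 0.24 with all 4. No member was called at over 2-fold in any fit. At an adjusted p under 0.05 without a fold threshold, 4 members were higher in edgeR with the replicate block, and 5 in DESeq2 with the block. In edgeR there were 6 with the block and DESeq2 size factors and 1 with the block and library totals, these last 2 settings being chosen after seeing the data.

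Over all genes, the labelled comparison called 0 higher and 0 lower. DESeq2 called 2 higher and 546 lower, and with the replicate block 7 and 845. In edgeR the replicate block gave 34 higher and 1180 lower, or 39 and 1120 with DESeq2 size factors and 30 and 1246 with library totals. Without a fold threshold the block gave 1085 and 1867, or 1649 and 1670 with DESeq2 size factors and 802 and 2137 with library totals. With no filter 255 genes were lower, and with at least 10 counts in all 4 libraries 153. Leaving out a library gave 0 to 13 higher and 0 to 457 lower, with 457 lower without rRNA-depleted library 2 and 364 lower without polyA-enriched library 2, where the lone library of a label is assumed to vary like the other label's. The cause of these changes was not tested. The range of levels per kb over the members was 3.90-fold with exon length and 3.63-fold with coding length. Counting error was widest for tipE, the member with the fewest counts.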
